A study of Mus musculus with 4 samples.

Results

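The 81 genes described here are those whose symbol marks a nuclear-encoded part of oxidative phosphorylation. They were taken by symbol alone from the 20193 genes that the deposited table names: the Ndufa, Ndufb, Ndufc, Ndufs and Ndufv series, the 4 Sdh genes, every Uqcr and Atp5 gene, the Cox4 to Cox8 genes, Cyc1 and Cycs. Of the 81, 76 encode a subunit or cytochrome c: 34 belong to complex I, 4 to complex II, 7 to complex III, 17 to complex IV, 13 to complex V, and 1 is cytochrome c itself. The pattern also takes 5 genes that are not subunits: Cox4nb, which neighbours a Cox4 gene, the paralogue Ndufa4l2, the supercomplex factor Cox7a2l, and Atp5s and Atp5sl. Ndufa4 is counted with complex IV, where its protein is now placed. Ndufa13, Uqcrb, Uqcrc2, Cox7c, Atp5h and Atp5j were not analysed here.

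Oxidative phosphorylation makes most of the ATP of a resting muscle cell. Complexes I and II pass electrons from NADH and succinate to ubiquinone, complex III hands them to cytochrome c, and complex IV gives them to oxygen, while complex V uses the resulting proton gradient to make ATP. Some subunits of complex IV exist in a form used in most tissues and a form typical of heart and skeletal muscle, and myoblasts shift towards the muscle forms and towards more mitochondria as they mature into fibres.

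The arrays carried RNA of C2C12, a mouse myoblast line, and the comparison asked what differed in cells given Myolinc, a long noncoding RNA. In the empty vector group (2 arrays) C2C12 had been transfected with the plain pcDNA3.1/Zeo(+) plasmid, and in the Myolinc line (2 arrays) with the same plasmid carrying Myolinc. The Myolinc line was polyclonal, so its cells may differ in where and how much plasmid they hold. Both groups were Zeocin-selected and grown in medium with 20% serum, and no sample was labelled as differentiated. All values are log2 expression, and a change is the Myolinc line minus empty vector.

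The median of an array lay between 7.24 and 7.35. The 6 myoblast markers measured all lay at or above the median probe set level, with Myod1 at 11.54 and 11.47 with empty vector and 11.59 and 11.55 in the Myolinc line. Of 10 myotube markers 3 reached that level. The log2 of the summed level of all 10 was 11.0 in both empty vector arrays against 12.1 in both Myolinc arrays. The median change of the 10 was 0.04, and Myh3, Myh8, Ckm and Myh1 had negative changes. Among the 10, Actn3, a muscle actinin, rose by 1.67 and the troponin gene Tnnt3 by 0.61. Actn3 was the highest of the 10 on every array, so it weighs most in the sum. Myog and the myosin heavy chain genes did not pass the test. Among the 6 myoblast markers Cdh15 rose by 0.49, the median change was 0.34, and Pax7 alone had a negative change, at -0.21. The summed level of the 6 was 13.6 in both empty vector arrays and 13.9 in both Myolinc arrays. Des, with 12.74 and 12.69 against 13.06 and 13.04, was the highest of the 6 and weighs most in that sum. Of 5 fibroblast markers Col3a1 rose by 0.69, and the median change was 0.20. The summed level of the 5 was 10.0 in both empty vector arrays and 10.5 and 10.7 in the Myolinc line. Col3a1 was the highest of the 5 and weighs most in that sum. None of 5 adipocyte markers rose or fell, and none reached the median level. The part of any of these in the changes below was not tested. In such bulk samples a change in the kinds of cell and a change in RNA per cell cannot be told apart.

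Most oxidative phosphorylation genes were slightly higher in the Myolinc line, and few passed the test. The median change of the 81 genes was 0.15, or 1.11-fold, against 0.02 over all genes and -0.01 over the 10523 genes at or above the median level, where 76 of the 81 lie. A positive change was seen in 67 of 81 (82.7%), against 54.8% of all genes and 47.6% of the genes at or above the median level. In 59 genes (72.8%) both Myolinc arrays lay above both empty vector arrays, and in 10 both lay below. Over all genes these shares were 27.9% above and 26.0% below. They were not taken over the genes at or above the median level, where most of the 81 lie. Relative to each gene's own mean, the median over the 81 was -0.07 and -0.10 on the empty vector arrays and 0.09 and 0.07 on the Myolinc arrays. The groups thus did not overlap in this median, which describes genes that share the same 4 arrays.

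**Figure D1:**
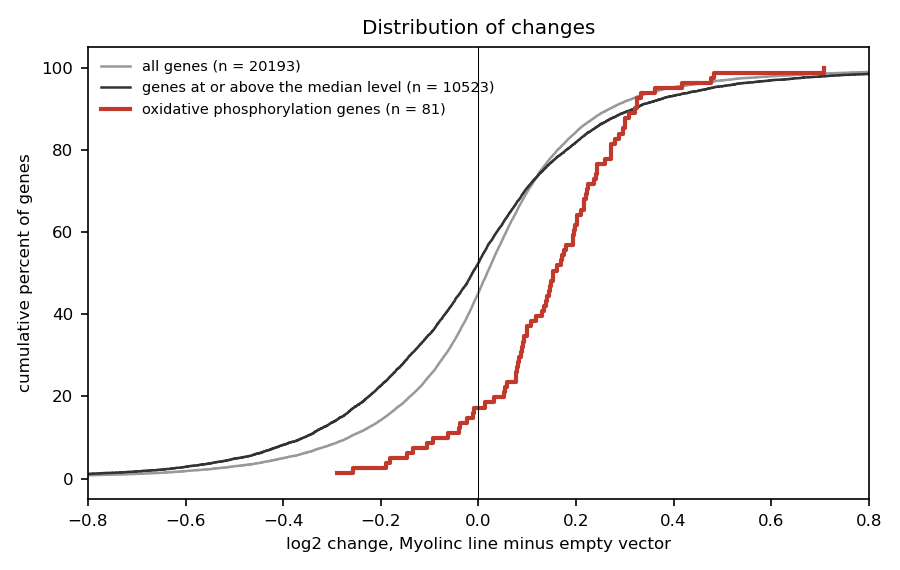
Cumulative percent of genes (vertical axis) against the log2 change, Myolinc line minus empty vector (horizontal axis), for the 81 oxidative phosphorylation genes, all 20193 genes and the 10523 genes at or above the median level. The curve of the 81 genes crosses its middle at 0.15, to the right of the other curves at 0.02 and -0.01.

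Single genes were tested with limma, with Benjamini-Hochberg adjustment over all 28944 probe sets. At an adjusted p under 0.05, 5 of the 81 rose (6.17%), none fell and 76 did not pass. The background was 3.97% of all genes higher and 3.96% lower, so the share that rose is near the background and is no result about these genes as a group. Of the 10523 genes at or above the median level, 680 rose and 724 fell, beside 5 and 0 of the 76 members there. At an unadjusted p under 0.05, 37 were higher and 3 lower, where 13.0% of all genes were higher and 13.6% lower. With probe sets below the median level left out, these were 45 and 6 of 76, against 22.7% and 28.1% of 10523 genes. The 5 that rose were Atp5l and Atp5o of complex V, Uqcr11 and Uqcrq of complex III, and Cox7a1 of complex IV. No subunit of complex I or II was among them. The authors' deposited table gives a p, apparently unadjusted, under 0.05 for 36 of the 81 and for 23.8% of all genes, in either direction.

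**Figure D2:**
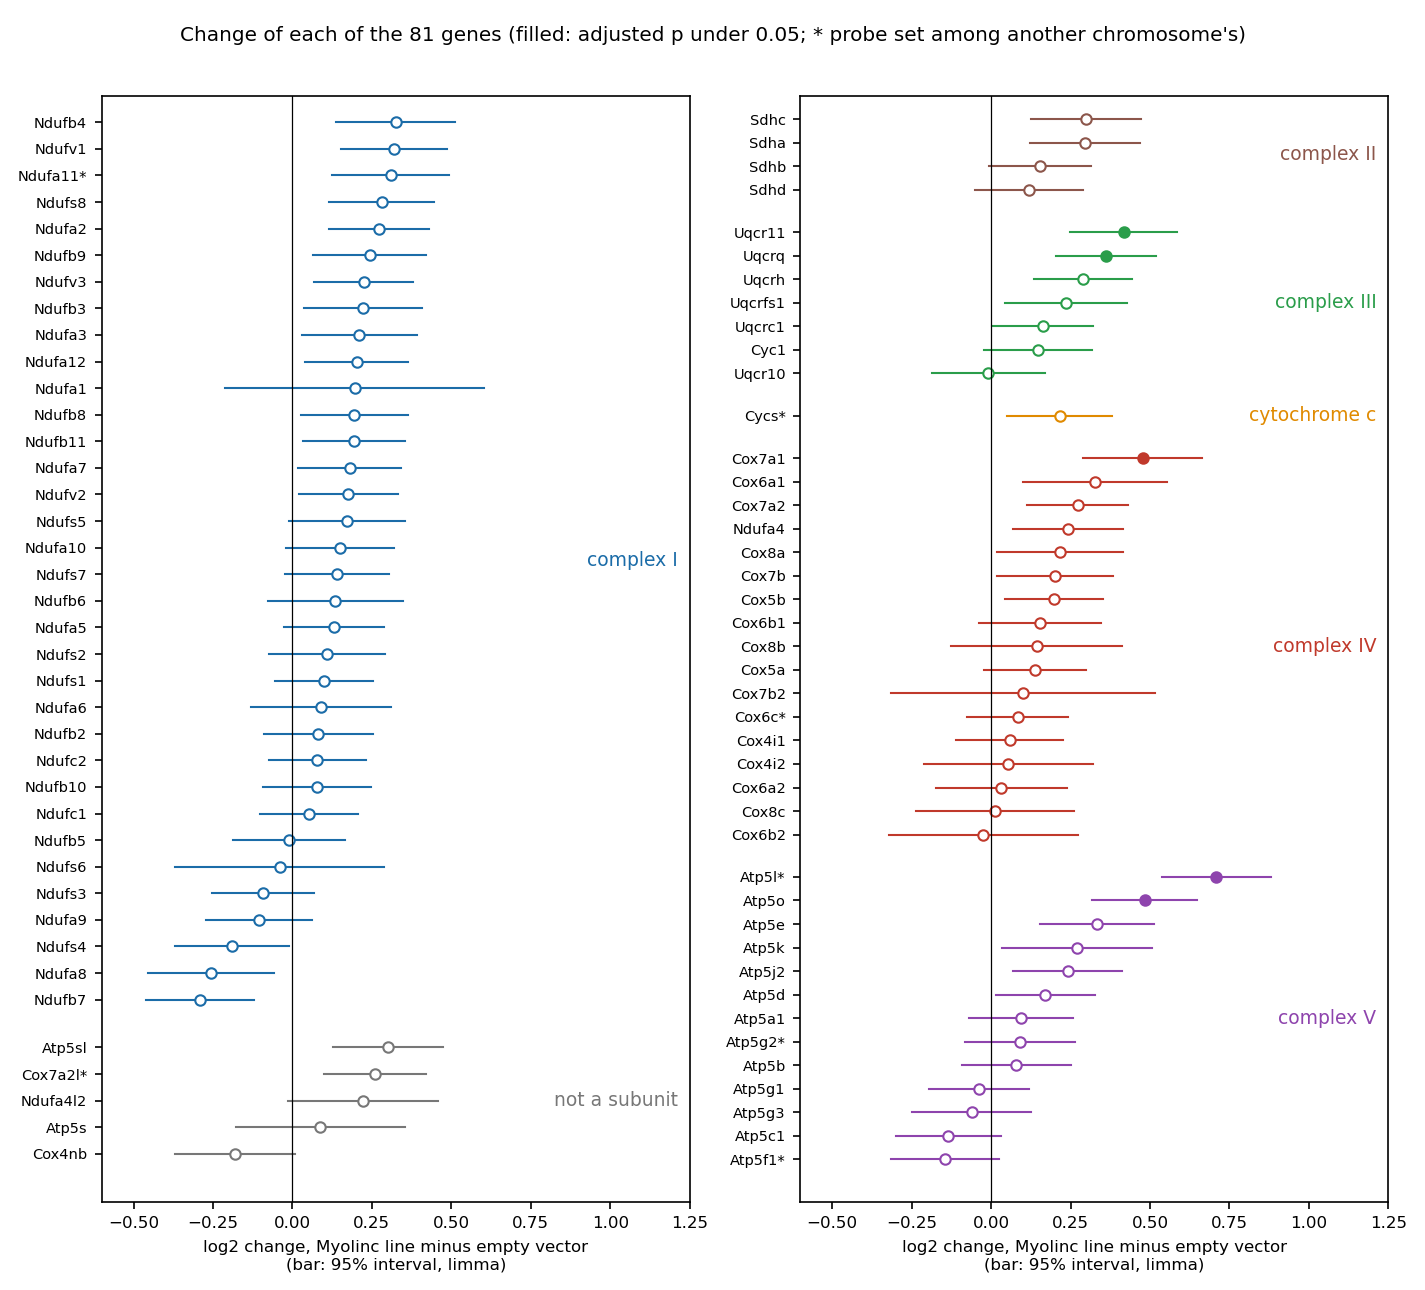
Log2 change (horizontal axis, Myolinc line minus empty vector) with its 95% interval from limma for each of the 81 genes, arranged by complex. The 5 filled points passed an adjusted p of 0.05, and an asterisk marks the 7 genes whose probe set number lies among those of another chromosome.

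Atp5l, which encodes subunit g of the membrane part of ATP synthase, read 9.48 and 9.54 with empty vector and 10.19 and 10.24 in the Myolinc line. It rose by 0.71 (SE 0.06, limma adjusted p = 0.0205), the largest change of the 81. Its probe set is uncertain, because its number lies among those of chromosome 5 while the gene is on chromosome 9. Probe set numbers of this array follow genome order: of 19058 genes with clear neighbours, 98.7% lay among probe sets of their own chromosome. The other genes with a probe set among another chromosome's were Ndufa11, Cox7a2l, Cycs, Atp5f1, Cox6c and Atp5g2, and what those probe sets detect was not tested. Among the 70 subunit genes without this doubt 4 rose, and their median change was also 0.15.

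Atp5o, the oligomycin sensitivity protein that joins the head of ATP synthase to its stalk, read 11.31 and 11.37 with empty vector and 11.83 and 11.81 in the Myolinc line. The rise was 0.48 (SE 0.06, adjusted p = 0.0319), and the Myolinc arrays lay well clear of the others. Cox7a1, the heart and muscle form of a small complex IV subunit, rose by 0.48 from 7.81 and 7.72 to 8.20 and 8.28 (SE 0.07, adjusted p = 0.0388). Uqcr11, a small subunit of complex III, rose by 0.42 from 9.93 and 9.97 to 10.40 and 10.34 (SE 0.06, adjusted p = 0.0410). Uqcrq, which encodes the complex III subunit next to cytochrome b, rose by 0.36 from 10.91 and 10.93 to 11.27 and 11.30 (SE 0.06, adjusted p = 0.0464). Each of the 5 rises exceeded the spread between arrays of a group, with no overlap between groups. In fits without 1 array the number of members called was 0 without either empty vector array, 1 without Myolinc replicate 1 and 2 without Myolinc replicate 2.

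**Figure D3:**
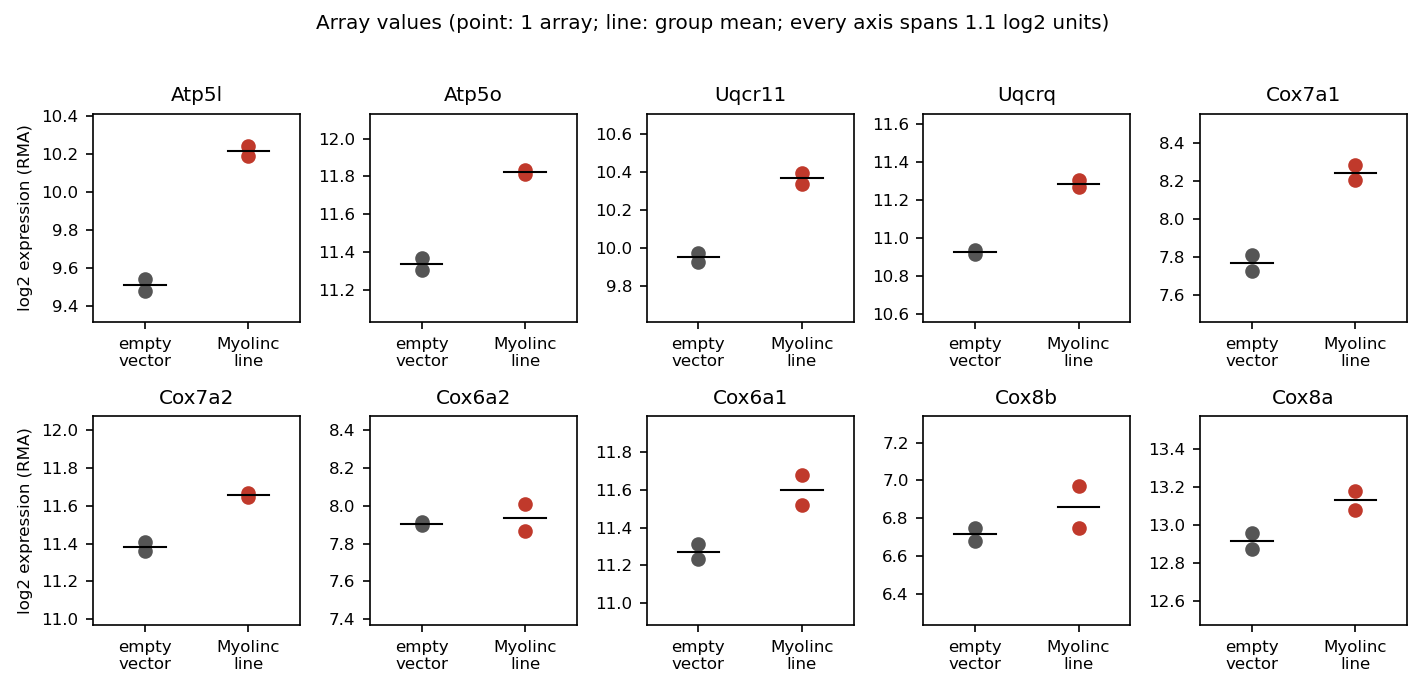
Log2 expression (RMA) on each array for the 5 genes that rose and for the muscle and ubiquitous forms of Cox7a, Cox6a and Cox8. Each point is 1 of 2 arrays per group and the line is the group mean. The groups do not overlap for the 5 genes that rose, Cox7a2, Cox6a1 and Cox8a, and overlap for Cox6a2 and Cox8b.

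Promoter sequence is shown for Atp5l, Atp5o, Uqcr11 and Cox7a1, which rose, and for the Cox7a1 partner Cox7a2, because many genes of this pathway are known to carry sites for the factors NRF-1, GABP and YY1 close to their start. Each window holds 250 bases before and 50 after the RefSeq start of the gene (build GRCm38.p6), read 5′ to 3′ on the gene's strand. Capitals mark letters that match GCATGCG (core of the NRF-1 site), CCGGAAG (ETS site of the GABP type) or AAGATGG (YY1), searched on both strands. The windows are chr9:44920693-44920992 on the minus strand for Atp5l, chr16:91931581-91931880 on the minus strand for Atp5o, chr10:80406772-80407071 on the minus strand for Uqcr11, chr7:30183921-30184220 on the plus strand for Cox7a1 and chr9:79759804-79760103 on the minus strand for Cox7a2.
Atp5l: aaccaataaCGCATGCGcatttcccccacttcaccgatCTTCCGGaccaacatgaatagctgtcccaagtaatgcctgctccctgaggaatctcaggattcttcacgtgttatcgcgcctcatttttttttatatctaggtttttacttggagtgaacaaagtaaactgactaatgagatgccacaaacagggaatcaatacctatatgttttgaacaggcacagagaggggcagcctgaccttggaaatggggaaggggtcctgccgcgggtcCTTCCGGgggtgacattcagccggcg
Atp5o: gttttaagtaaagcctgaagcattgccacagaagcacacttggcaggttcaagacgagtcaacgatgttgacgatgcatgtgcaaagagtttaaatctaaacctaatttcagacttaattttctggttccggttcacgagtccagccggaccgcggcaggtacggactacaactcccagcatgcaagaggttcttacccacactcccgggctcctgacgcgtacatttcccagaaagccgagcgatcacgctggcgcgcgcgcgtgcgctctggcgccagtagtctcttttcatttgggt
Uqcr11: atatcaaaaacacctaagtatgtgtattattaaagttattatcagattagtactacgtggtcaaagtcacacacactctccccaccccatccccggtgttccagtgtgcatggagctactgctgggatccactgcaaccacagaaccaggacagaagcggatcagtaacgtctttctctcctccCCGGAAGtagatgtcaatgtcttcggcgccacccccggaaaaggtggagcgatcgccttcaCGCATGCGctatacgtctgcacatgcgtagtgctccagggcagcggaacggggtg
Cox7a1: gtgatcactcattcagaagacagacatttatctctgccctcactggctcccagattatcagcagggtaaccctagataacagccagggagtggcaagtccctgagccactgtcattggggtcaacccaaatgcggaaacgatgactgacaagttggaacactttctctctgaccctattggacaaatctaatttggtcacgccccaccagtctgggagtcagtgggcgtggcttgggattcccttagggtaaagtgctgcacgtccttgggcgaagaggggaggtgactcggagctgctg
Cox7a2: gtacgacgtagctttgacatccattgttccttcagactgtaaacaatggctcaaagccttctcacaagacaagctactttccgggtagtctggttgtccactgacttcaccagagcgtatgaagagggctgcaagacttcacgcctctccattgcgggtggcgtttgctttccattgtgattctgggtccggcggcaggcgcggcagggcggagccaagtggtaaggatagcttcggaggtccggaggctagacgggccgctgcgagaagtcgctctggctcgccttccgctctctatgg

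The windows of Atp5l and Uqcr11 held matches, and those of Atp5o, Cox7a1 and Cox7a2 held none. In both, NRF-1 matches on the 2 strands overlap by all but the outer letters. Uqcr11 has 1 ETS match, and Atp5l has 2 on the opposite strand, printed as CTTCCGG. The Atp5l window is that of the gene on chromosome 9, and the doubt about its probe set holds here too. Over the 66 of the 81 genes with a RefSeq window, 11 (16.7%) held the NRF-1 core, against 4.01% of the 27025 RefSeq genes with such a window. The ETS letters were in 14 (21.2%, against 9.93%) and the YY1 letters in 10 (15.2%, against 7.28%). At least 1 of the 3 was in 30 (45.5%, against 19.3%). CAGCTG, an E-box of the kind MyoD binds, was in 6 (9.09%, against 18.3%). A gene was counted when any of its windows held the letters. The 27025 genes were not limited to those on the arrays or to those at or above the median level. A match describes letters in a window and not a bound site.

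Complex I, which takes electrons from NADH, had a median change of 0.145 over its 34 genes, of which 27 were positive and none passed the test. In 25 genes the Myolinc arrays lay above the empty vector arrays, and in 5 below, against 27.9% and 26.0% of all genes. The largest positive change was that of Ndufb4, a membrane arm subunit, which read 12.26 and 12.15 with empty vector and 12.54 and 12.52 in the Myolinc line (0.33, SE 0.07, adjusted p = 0.0763). Ndufv1, which binds NADH and flavin, changed by 0.32 and Ndufs8, an iron-sulfur subunit, by 0.28. The 7 nuclear core subunits, which carry the redox centres or their scaffold, had a median of 0.14 with 6 positive, and the 27 supernumerary subunits a median of 0.15 with 21 positive. Ndufs3 was the core subunit with a negative change, at -0.09.

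The most negative changes of all 81 genes also lay in complex I. Ndufb7, a subunit on the intermembrane side, read 10.35 and 10.34 with empty vector and 10.09 and 10.02 in the Myolinc line (-0.29, SE 0.06, adjusted p = 0.0792). Ndufa8, a subunit with paired cysteines, changed by -0.26 (SE 0.07, adjusted p = 0.132), and Ndufs4, an accessory subunit of the peripheral arm, by -0.19 (SE 0.07, adjusted p = 0.189). For all 3 the groups did not overlap. Ndufa1 had the widest spread of the complex, with 8.53 and 8.46 against 8.49 and 8.89, so that its change of 0.20 lies within the spread between arrays.

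Complex II is also the succinate dehydrogenase of the citric acid cycle, and all 4 of its genes were higher on both Myolinc arrays, with a median change of 0.22. Sdha, the flavin subunit that oxidises succinate, read 10.83 and 10.92 with empty vector and 11.17 and 11.18 in the Myolinc line (0.30, SE 0.06, adjusted p = 0.0778). Sdhb, the iron-sulfur subunit, read 10.71 and 10.76 against 10.90 and 10.89 (0.15, SE 0.06, adjusted p = 0.223). Sdhc, a membrane anchor, read 11.36 and 11.29 against 11.65 and 11.60 (0.30, SE 0.06, adjusted p = 0.0768). Its partner anchor Sdhd read 10.85 and 10.87 against 11.01 and 10.94 (0.12, SE 0.06, adjusted p = 0.360). None passed the test, and for each gene the Myolinc arrays lay above the empty vector arrays, as they did for 27.9% of all genes.

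Complex III, which oxidises ubiquinol, had a median change of 0.24 over 7 genes, of which 2 rose and 6 were positive. Besides Uqcr11 and Uqcrq, the hinge protein gene Uqcrh changed by 0.29 (SE 0.06, adjusted p = 0.0679), from 11.82 and 11.79 to 12.09 and 12.10. The Rieske iron-sulfur gene Uqcrfs1 changed by 0.24 and the core protein gene Uqcrc1 by 0.16. Cyc1, the gene of cytochrome c1, read 12.25 and 12.23 against 12.35 and 12.43 (0.15, SE 0.06, adjusted p = 0.263). Uqcr10, another small subunit, was the exception at -0.01, with 10.36 and 10.39 against 10.41 and 10.32. Cycs, the electron carrier between complexes III and IV, read 12.66 and 12.60 against 12.83 and 12.86 (0.22, SE 0.06, adjusted p = 0.129). Its probe set is one of those numbered among another chromosome's.

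Complex IV, the oxidase that reduces oxygen, is split here into forms used in most tissues and tissue-type forms. All 10 ubiquitous genes were higher on both Myolinc arrays, as were 27.9% of all genes. Their median was 0.20, with a range of 0.06 for Cox4i1 to 0.33 for Cox6a1, although none passed the test. Of the 7 tissue-type forms, Cox7a1 alone showed groups that did not overlap, and the median of the 7 was 0.05. Cox7b2, Cox6b2 and Cox8c, known from testis, changed by 0.10, -0.02 and 0.01, and Cox4i2, known from lung, by 0.05. Among these forms Cox7b2 and Cox6b2 lay below the median level of the arrays, as did the muscle form Cox8b, where a change is harder to measure.

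The 3 muscle forms were compared with their ubiquitous partners by the difference between the pair on each array. An exact permutation test of 2 arrays against 2 cannot give a p below 0.33. For the Cox7a pair, Cox7a1 changed by 0.48 while Cox7a2 changed by 0.27, from 11.41 and 11.36 to 11.65 and 11.67 (SE 0.06, adjusted p = 0.0787). The difference in change was 0.20, with no overlap between groups (exact permutation p = 0.33). The Cox6a pair went the other way: Cox6a2 read 7.91 and 7.90 against 8.01 and 7.86, a change of 0.03, while Cox6a1 went from 11.31 and 11.23 to 11.68 and 11.52, a change of 0.33 (SE 0.08, adjusted p = 0.109). The muscle form thus changed by 0.29 less, again with no overlap (exact permutation p = 0.33). In the Cox8 pair Cox8b read 6.75 and 6.68 against 6.97 and 6.75, a change of 0.14, and Cox8a 12.96 and 12.87 against 13.08 and 13.18, a change of 0.22. The difference in change was -0.07, and the groups overlapped (exact permutation p = 1.0). The muscle forms therefore shared no direction relative to their partners.

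The other 8 paralogue pairs are given for comparison. Relative to their partners Cox6b2 changed by -0.18 and Cox8c by -0.20 with no overlap, whereas Cox4i2 (-0.005), Cox7b2 (-0.10) and Ndufa4l2 (-0.02) overlapped. The c-ring of ATP synthase has 3 genes, which encode the same mature protein. Among them Atp5g2 changed by 0.15 more than Atp5g3 and by 0.13 more than Atp5g1, each without overlap, and Atp5g1 and Atp5g3 overlapped. The contrasts without overlap rest on the Atp5g2 probe set, whose number lies among those of another chromosome. The pairs without overlap stood at the smallest p that the exact permutation test can give, and the others at 0.667 or above.

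Complex V, the ATP synthase, had a median change of 0.09 over 13 genes, with 9 positive and 4 negative. The groups of all 13 did not overlap, with 9 above and 4 below, against 27.9% and 26.0% of all genes. In the catalytic head the change was 0.33 for Atp5e (epsilon), from 9.29 and 9.38 to 9.67 and 9.67 (SE 0.07, adjusted p = 0.0679), 0.17 for Atp5d (delta), 0.09 for Atp5a1 (alpha), 0.08 for Atp5b (beta) and -0.13 for the rotor gene Atp5c1 (gamma). The c-ring genes stood at -0.04 for Atp5g1, 0.09 for Atp5g2 and -0.06 for Atp5g3. The small membrane subunit genes were higher: beside Atp5l, Atp5k (subunit e) changed by 0.27 and Atp5j2 (subunit f) by 0.24. In the peripheral stalk Atp5o rose while Atp5f1 (subunit b) read 11.80 and 11.87 against 11.68 and 11.70, a change of -0.15 (SE 0.06, adjusted p = 0.267). The probe sets of Atp5f1 and Atp5g2 share the doubt on their chromosome.

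Of the 5 genes that are not subunits, none passed the test. Atp5sl, an assembly factor of complex I despite its name, changed by 0.30, Cox7a2l by 0.26, Ndufa4l2 by 0.22 and Atp5s by 0.09. Cox4nb, now known as Emc8 of the endoplasmic reticulum, changed by -0.18.

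The number of calls depended on which probe sets and which variance model entered the fit. When probe sets below the median level were left out, 36 of 76 rose (47.4%) and 3 fell, Ndufa8, Ndufb7 and Ndufs4, against a background of 18.0% higher and 21.8% lower over the 10523 genes. With a trended and robust variance 40 of 81 rose (49.4%) and 5 fell, the same 3 with Atp5c1 and Atp5f1. The background there was 9.55% higher and 11.3% lower over all 20193 genes, whatever their level. In both settings 35 genes rose and 3 fell. With probe sets below the median level left out, the risers were 14 genes of complex I, 2 of complex II (Sdha and Sdhc), 4 of complex III, 7 of complex IV, 6 of complex V, Cycs, Atp5sl and Cox7a2l. Cox7a1 was the one tissue-type form of complex IV among the risers in either setting. Smaller moves came from a threshold of 0.1 (17 rose and 1 fell, Ndufb7, against 7.27% and 7.93%), from adjustment over symbol genes alone (9 and 0, against 5.97% and 6.36%) and from a further quantile normalization (7 and 0, against 4.66% and 4.42%). Other settings lowered the count: 2 rose and none fell with array medians subtracted, against 3.01% and 4.04%. None rose or fell with the control range kept, against 0.847% and 0.574%, or without moderation, against 0.00% and 0.00%.

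Changes also moved with the chromosome on which a gene lies. Over genes at or above the median level chromosomes 2, 8, 11 and 3 had a median change of -0.14, -0.13, -0.11 and -0.10, and chromosome 16 one of 0.16. On those 4 chromosomes with a median under -0.1, a limit chosen after the values were seen, 5 of 14 oxidative phosphorylation genes were positive and their median was -0.02. On the other chromosomes 56 of 60 were positive, with a median of 0.18. Ndufb7 is on chromosome 8, and Ndufa8, Ndufs3, Atp5c1 and Atp5g3 are on chromosome 2, as are Atp5e (0.33) and Cox4i2 (0.05). Uqcrq, which rose by 0.36, is on chromosome 11, and Ndufs4 (-0.19) is on chromosome 13, outside these 4. Atp5o and Ndufb4 are on chromosome 16, and both lay above that chromosome's median. Set against their own chromosome, 66 of 74 genes lay above its median, by a median of 0.14. A further fit subtracted each chromosome's median over all its genes, not the medians given above. These were -0.01, -0.05, -0.03 and -0.02 on chromosomes 2, 8, 11 and 3 and 0.09 on chromosome 16. In that fit 4 members rose and none fell, against 3.36% of genes higher and 3.81% lower. Uqcr11 no longer passed there (limma adjusted p = 0.0559). The part of the chromosome in these changes was not tested.

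**Figure D4:**
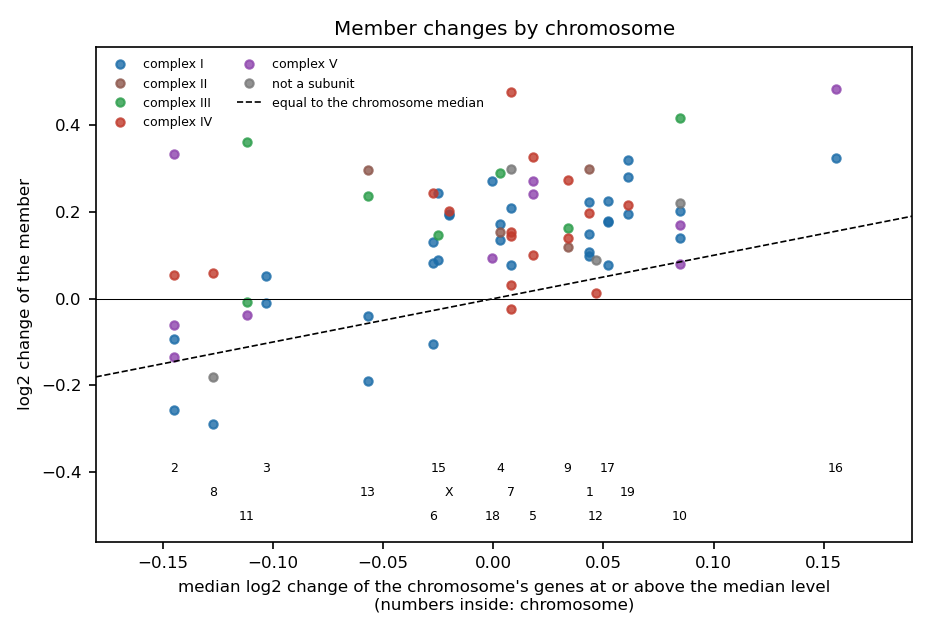
Log2 change of each of the 74 genes whose probe set was not doubted for its chromosome (vertical axis). The horizontal axis is the median log2 change of that chromosome's genes at or above the median level. Points above the dashed line, 66 of 74, exceed their chromosome's median.

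The rest of the pathway was examined through lists of 136 genes, of which 122 were measured, 10 rose (8.20%) and 1 fell. Over all genes 3.97% rose and 3.96% fell, a background that holds for each list below. Assembly factors, which build the complexes without staying in them, showed no common direction: 28 of 48 were positive, with a median of 0.05, 4 rose and 1 fell. For complex I, Ndufaf3 rose by 0.85 (SE 0.08, adjusted p = 0.0223), from 7.74 and 7.70 to 8.65 and 8.49, and 4930455C21Rik, the symbol listed for Timmdc1, by 0.53 (SE 0.08, adjusted p = 0.0434), from 10.28 and 10.45 to 10.90 and 10.88. These were 2 of 15, with a list median of -0.06. For complex IV, the copper chaperone gene Cox17 rose by 0.54 (SE 0.06, adjusted p = 0.0294), from 8.21 and 8.23 to 8.72 and 8.80. Higd2a, a factor for complex IV and its supercomplexes, rose by 0.35 (SE 0.06, adjusted p = 0.0496), from 11.96 and 11.99 to 12.31 and 12.35. Sco1, which also delivers copper, fell by 0.40 (SE 0.07, adjusted p = 0.0493), from 8.87 and 8.97 to 8.54 and 8.50. The list median for these 20 was 0.09. None of 3 factors for complex II, 6 for complex III or 4 for complex V passed, with medians of 0.06, -0.0006 and -0.003.

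Of 6 further genes in or near the chain that the symbols miss, 2 rose. 2010107E04Rik, a small protein of ATP synthase, rose by 0.45 (SE 0.07, adjusted p = 0.0460), from 10.12 and 10.01 to 10.55 and 10.47. Gm2695, which RefSeq names Ndufb1, rose by 0.38 (SE 0.06, adjusted p = 0.0496), from 8.70 and 8.76 to 9.14 and 9.08. Usmg5, Cyct, Ndufab1 and Nnt, a transhydrogenase that is no part of the chain, did not pass. Of the 13 proteins encoded in mitochondrial DNA 8 were measured, all with a positive change and a median of 0.09. ND6, the gene on the light strand, rose by 0.63 (SE 0.07, adjusted p = 0.0266), from 9.16 and 9.20 to 9.86 and 9.75. The other 7 changed by 0.02 to 0.12, and the probe set of ND4L is numbered among those of chromosome 1.

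Of 20 genes of the citric acid cycle and pyruvate entry, 16 were positive, with a median of 0.09. Idh2, the mitochondrial NADP-dependent isocitrate dehydrogenase, rose by 0.54 (SE 0.06, adjusted p = 0.0277), from 11.29 and 11.24 to 11.83 and 11.78. None of 25 genes for mitochondrial import and structure passed. Their median was -0.05 with 18 negative, among them the prohibitin gene Phb at -0.34 (adjusted p = 0.0515) and the chaperone gene Hspd1 at -0.47 (adjusted p = 0.0701).

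Regulators of these genes moved in both directions, with 6 of 15 positive and a median of -0.06. Ppargc1a, the coactivator best known for raising mitochondrial genes in muscle, read 5.89 and 6.12 with empty vector and 7.25 and 7.42 in the Myolinc line. It rose by 1.33 (SE 0.11, adjusted p = 0.0196). The empty vector values lie below the median probe set level of 7.27, where a change is harder to measure. Its relative Ppargc1b rose by 0.56 (SE 0.06, adjusted p = 0.0267), from 7.89 and 7.91 to 8.43 and 8.50. Pprc1, the other member of that family, changed by -0.31 (adjusted p = 0.0657). Gabpb2, a partner of GABP, changed by -0.44 (adjusted p = 0.0523) and Gabpb1 by -0.25 (adjusted p = 0.162). Gabpa went the other way, from 9.68 and 9.74 to 9.95 and 10.09 (0.31, SE 0.08, adjusted p = 0.108). The genes of NRF-1 and YY1 did not pass (Nrf1 -0.06, Yy1 -0.055), nor did Esrra (0.04) or Tfam (0.12).

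**Figure D5:**
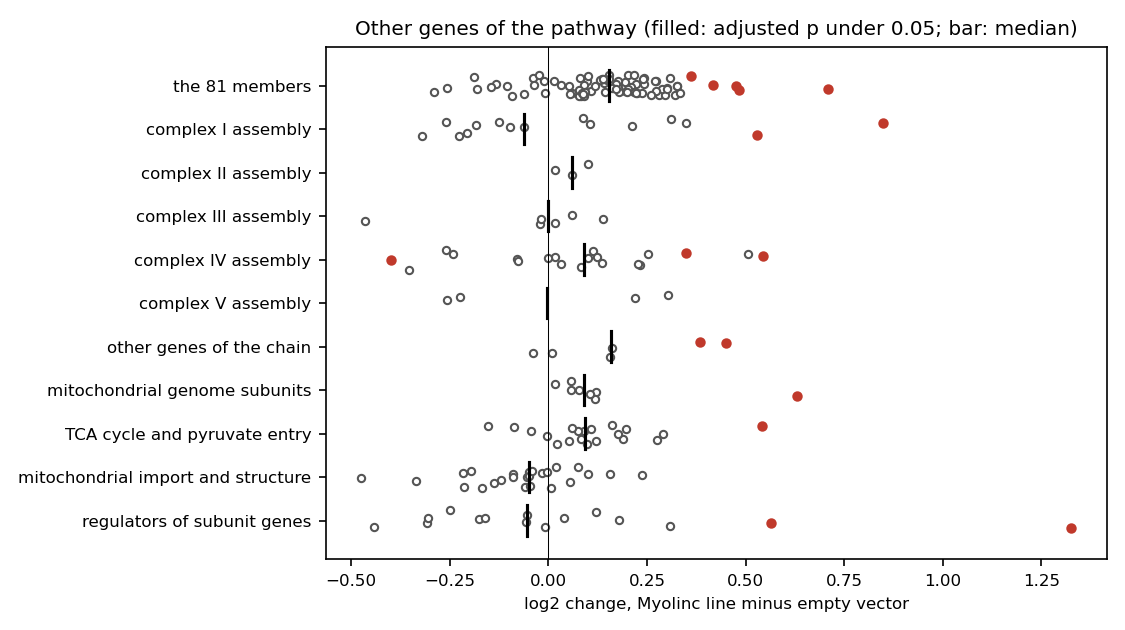
Log2 change (horizontal axis, Myolinc line minus empty vector) of each of the 81 genes and of each measured gene of 10 further lists (rows). Filled points passed an adjusted p of 0.05 and bars are medians, which stand at 0.15 for the 81 genes, 0.09 for the citric acid cycle and -0.05 for import and structure.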

How the data were processed

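Affymetrix arrays measured total RNA of C2C12 cells, with 2 arrays per group and 4 in all. Log2 expression was deposited by the authors after RMA normalization. RMA and limma are named without versions in the submitters' processing notes. Per the file headers, each gene in the authors' deposited table has its own p-value and log2 fold change. The array annotation, the genome build and whether that p-value is adjusted are details not given in the sources used here. It was under 0.05 for 4814 genes. The limma fit with the control range kept has the same number at an unadjusted p under 0.05, and 287 genes at an adjusted one. The deposited p-value thus appears to be unadjusted. For the 81 genes its log2 fold change differed from the fit by at most 0.000493.

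The value table has 35556 rows. Those numbered lowest, 6612 without a symbol, were left out as controls, and 28944 were tested with no filter on level. Groups were compared with limma 3.58.1 (lmFit and eBayes, defaults, R 4.3.3). Tests were two-sided, p-values were adjusted by Benjamini-Hochberg across the 28944 probe sets, and the threshold was 0.05. Residual degrees of freedom were 2 and prior ones 2.18. Standard errors and 95% intervals are the moderated ones. No test was made over a list. The number of arrays limits the precision. The labels call the arrays biological replicates without naming separate transfections, so a p-value here reflects just the spread among 4 arrays, which may be technical.

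Chromosomes and promoters came from RefSeq (GRCm38.p6). A probe set was doubted when at least 0.8 of its 15 neighbours by number on either side lay on another chromosome than its gene. Figures used matplotlib 3.10.9 in Python 3.11.15. The fit was tested on simulated data.

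The genes and lists were chosen with earlier results of these data known. Any of the 81 could be named. Given with array values were those past the threshold, extremes of each complex, the 3 muscle isoform pairs, Cyc1, Cycs and the Sdh genes. The exception was Cox6b2, the lowest of complex IV, given by its change alone. For the other 8 pairs the difference in change is given without array values. Of the other lists, genes past the threshold and up to 2 more per list with the smallest p were to be named. Other genes given as examples were picked with their values in view. A gene that this rule takes is not reported here. Foxred2, 2010107E04Rik and Usmg5 were taken out of the list of complex V assembly factors after values were seen, the first because it is no assembly factor and the others because they are subunits and stand in another list. Ndufb1 was added then. Alternatives were a replicate block, other variance models, filters and scalings, other thresholds and leaving out each array. Leaving out doubted probe sets and genes that are no subunits was added after the data were seen.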

Additional observations from a re-analysis of the deposited data

How the results depend on the processing

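The 5 members that rose, and the 0 that fell, depended on the fit. The number that rose was 40 with a trended and robust variance, 36 without lower-level probe sets, 17 at an adjusted p under 0.1, 9 with symbol genes alone, 7 after a further quantile normalization, 4 with chromosome medians subtracted and 2 with array medians subtracted. It was 0 with the control range kept (34 higher and 2 lower at an unadjusted p under 0.05, against 11.6% and 12.3% of genes) and 0 without moderation (37 and 1, against 11.1% and 11.6%), and 0 to 2 in limma fits without 1 array (0 without either empty vector array, 1 and 2 without Myolinc replicates 1 and 2; at an unadjusted p under 0.05, 17 to 24 higher, against 8.50% to 14.5% of genes). Members that fell numbered 5, 3 and 1 under the first 3 of these settings and 0 in fits without 1 array. With the replicate number as a block 0 members rose (33 higher and 2 lower at an unadjusted p under 0.05, against 13.6% and 13.9% of genes), as 136 of all genes were called in place of 1602. Replicates share only a number, and deviations of same-numbered arrays correlated at 0.215. In the other lists 10 rose and 1 fell. These were 1 and 0 with the block, 25 and 18 with the trended variance, 22 and 20 without lower-level probe sets, 0 and 0 with the control range or without moderation, 6 and 0 with chromosome medians subtracted, 17 and 10 at an adjusted p under 0.1, and 0 to 6 and 0 to 1 without 1 array. The number lower was 3 after quantile normalization, 8 with symbol genes alone and 0 with array medians subtracted. The background beside these list counts was 9.55% of genes higher and 11.3% lower with the trended variance. Without lower-level probe sets it was 18.0% and 21.8%, and at an adjusted p under 0.1 it was 7.27% and 7.93%. The median of the members stayed positive: 0.11 with array medians subtracted, 0.13 with chromosome medians subtracted and 0.16 to 0.17 without 1 array. The chromosome medians subtracted here were those over all genes of a chromosome. With array medians subtracted complexes I to V stood at 0.10, 0.18, 0.20, 0.10 and 0.052. With chromosome medians subtracted complexes I and II stood at 0.12 and 0.20, and after quantile normalization at 0.16 and 0.25. Without 1 array complexes I to V ranged over 0.13 to 0.16, 0.19 to 0.23, 0.18 to 0.29, 0.11 to 0.19 and 0.082 to 0.12. The Cox6a2 minus Cox6a1 change was -0.33 after quantile normalization and -0.33 to -0.26 without 1 array, Cox7a1 minus Cox7a2 0.18 to 0.23 and Cox8b minus Cox8a -0.24 to 0.09. With all 4 arrays, members that turned sign, none of them called, were Ndufb5 (after quantile normalization and with chromosome medians subtracted), Cox6a2 (-0.0094 with array medians subtracted), Cox8c (-0.021 after quantile normalization, -0.028 with array medians and -0.016 with chromosome medians subtracted) and Uqcr10 (0.0093 after quantile normalization, 0.024 with chromosome medians subtracted). Without 1 array 10 of the 81 spanned 0, none of them called: Atp5s -0.023 to 0.20, Ndufa1 -0.0021 to 0.39, Ndufb5 -0.047 to 0.026, Ndufs6 -0.19 to 0.11, Cox4i2 -0.040 to 0.15, Cox6a2 -0.040 to 0.10, Cox6b2 -0.15 to 0.10, Cox7b2 -0.082 to 0.28, Cox8c -0.087 to 0.11 and Uqcr10 -0.053 to 0.036. Fewer probe sets or arrays enter some of these fits, and otherwise the cause was not tested. In the main limma fit over all 28944 probe sets no member change under 0.36 passed. With the trended and robust variance smaller changes passed, such as 0.15 for Cyc1 and -0.13 for Atp5c1.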
